A study of Mus musculus with 12 samples.

Results

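The genes described here encode the subunits of integrins and laminins. They were taken from the whole-genome gene count matrix by symbol: Itga or Itgb followed by a number or letters, and Lama, Lamb or Lamc followed by 1 digit, without the 3 genes Itgb1bp1, Itgb3bp and Itgbl1. This gave 39 of 55487 genes, namely 18 integrin α subunits, 9 integrin β subunits, 5 laminin α, 3 laminin β and 3 laminin γ chains, and Itgb1bp2 (melusin), a muscle chaperone that fits the naming pattern but is not a subunit.

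RNA was measured by polyA-selected RNA-seq in female mouse embryonic stem (ES) cells from a cross of C57BL6 and CAST strains, in 4 groups of 3 libraries. Wild type cells and cells labelled SIRT7-KO were each sampled at day 0 and day 7. The treatment protocol gives LIF, the cytokine that keeps ES cells undifferentiated, up to day 0 and its removal afterwards. A treatment tag on each sample goes against this: it reads LIF for 1 wild type and 2 knockout libraries of each day and None for the others, so that the days do not differ in it. The groups are therefore called by their day alone. With the tag as a term in the fit, the number of genes called was 27 over 7 days in each genotype, as without it. Because the tag is balanced over the days within each genotype, this fit could not show whether it matters for the change over days. The day 7 cells were whole cultures, so that fewer cells of a type and less RNA per cell cannot be told apart. The labels do not say that replicates were separate cultures, so the p-values measure only the spread between these libraries. Library totals ran from 25190483 to 69079368 counts. Reads of Sirt7, the gene named in the knockout label, were at 16.9 to 25.1 CPM in the 6 libraries labelled knockout and 8.03 to 15.3 CPM in the 6 wild type libraries. That is the opposite order to a loss of its mRNA, and the groups below are called by their labels. The labels name neither the knockout's design nor the number of clones.

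Integrins are receptors of the cell surface made of 1 α and 1 β chain, which bind proteins of the extracellular matrix outside the cell and couple them to the actin cytoskeleton inside. Laminins are cross-shaped trimers of 1 α, 1 β and 1 γ chain that polymerise into the sheet of the basement membrane. In the early mouse embryo the first basement membranes contain laminins with the α1 or α5 chain together with β1 and γ1, and β1 integrin is needed by cells that sit on them.

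Levels are given in CPM, counts scaled to the size of the library after TMM (a library size adjusted for composition), and, where genes are compared with each other, in RPKM, which is CPM per kilobase of the gene's annotated exons. Differences are log2 values with a standard error (SE) from edgeR's quasi-likelihood test, and a gene is said to have risen, fallen or differed where its Benjamini-Hochberg adjusted p over all 19235 genes tested was at most 0.05. Of the 39 genes, 31 passed the filter on low counts. The 8 that did not were Itga2, Itgad, Itgam, Itgax, Itgb2l, Itgb6, Lama2 and Lamc3, and Itgad, Itgax and Itgb2l had no read in any library. Itgb6, Lama2 and Lamc3 had 21, 25 and 32 reads in the 3 wild type libraries of day 7 and none in wild type at day 0.

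Over the 7 days, 27 of the 31 tested genes passed the test in wild type (87.1%), 19 upward and 8 downward. Over all genes, 65.1% passed, 32.9% upward and 32.1% downward. In the knockout, 27 of 31 also passed, 19 upward and 8 downward, beside 63.4% of all genes, of which 31.1% rose and 32.3% fell. The median log2 change of the 31 genes was 1.04 in wild type and 1.45 in the knockout, against 0.01 and -0.02 over all genes. In 25 of the genes both genotypes passed, 18 upward in both and 7 downward in both. The share of all genes that passed in both genotypes was not computed, so the 25 have no background beside them. These comparisons use separate libraries for each genotype, and their values stand side by side in the plot of the 7-day change in each genotype.

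**Figure D1:**
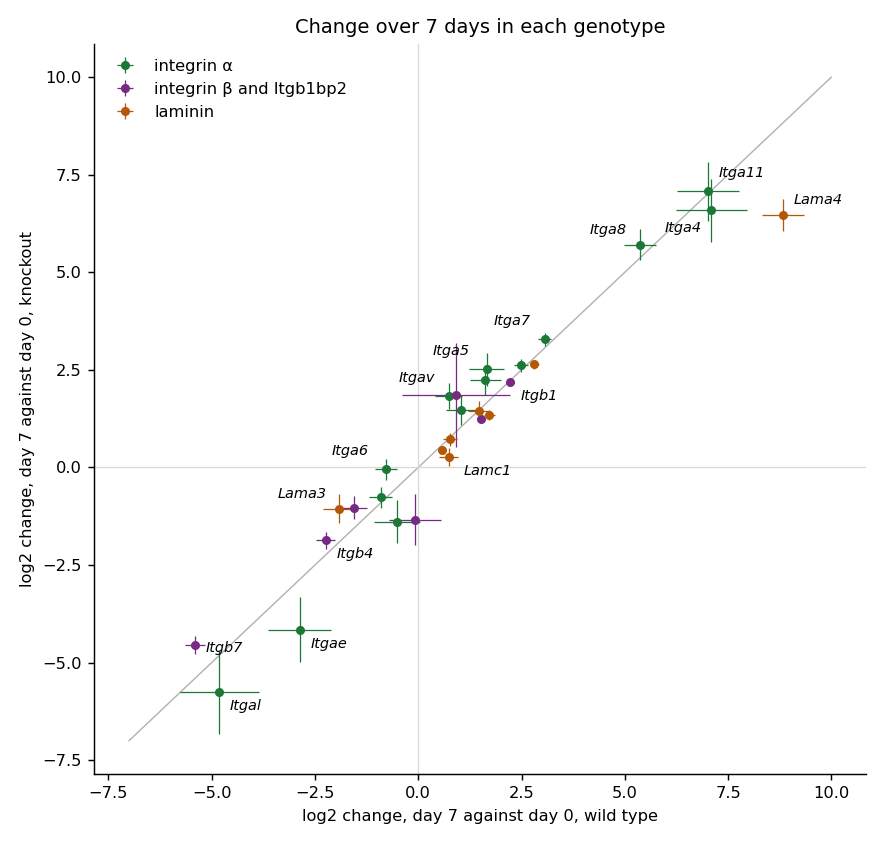
Log2 change from day 0 to day 7 in wild type (horizontal axis) and knockout (vertical axis) of 29 tested genes, with bars of 1 SE in each direction and the line of equal change in grey. Lama4, Itga4, Itga11 and Itga8 lie at the upper right and Itgb7 and Itgal at the lower left, and Itgb8, which had no read at day 0, is not drawn.

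The promoters of 3 genes are shown because their mRNAs stand at the extremes of the families: Itgb1 and Itga5 were the most abundant β and α subunit at both days on the per-length scale, and Itgb7 had the largest fall among genes with at least 10 CPM in a group. Each is the run of 250 bases before the RefSeq transcript start (GRCm38.p6), printed 5′ to 3′ on the gene's strand, with capitals for every match to the GC box GGGCGG, the TEAD site GGAATG or the AP-1 site TGANTCA on either strand.
Itgb1, chr8:128685404-128685653, plus strand: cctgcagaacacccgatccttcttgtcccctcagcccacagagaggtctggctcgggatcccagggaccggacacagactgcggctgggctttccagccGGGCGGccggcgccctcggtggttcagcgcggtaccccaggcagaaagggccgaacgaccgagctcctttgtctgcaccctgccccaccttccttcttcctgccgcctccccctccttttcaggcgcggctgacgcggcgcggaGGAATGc
Itga5, chr15:103366792-103367041, minus strand: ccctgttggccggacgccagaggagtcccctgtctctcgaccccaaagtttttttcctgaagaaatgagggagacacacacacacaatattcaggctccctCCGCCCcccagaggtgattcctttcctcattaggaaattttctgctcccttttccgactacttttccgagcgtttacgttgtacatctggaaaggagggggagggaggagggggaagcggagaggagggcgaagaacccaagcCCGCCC
Itgb7, chr15:102231936-102232185, minus strand: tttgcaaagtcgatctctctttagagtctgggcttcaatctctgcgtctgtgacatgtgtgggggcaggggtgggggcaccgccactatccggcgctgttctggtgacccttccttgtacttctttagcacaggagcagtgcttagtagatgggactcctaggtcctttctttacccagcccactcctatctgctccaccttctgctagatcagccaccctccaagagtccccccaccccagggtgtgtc
The Itgb1 promoter held 1 GC box and 1 TEAD site, the Itga5 promoter held 2 GC boxes, and the Itgb7 promoter held none of the 3 motifs. Over 32851 promoters of this length, 32.7% held the GC box, 12.6% the TEAD site and 6.75% the AP-1 site. RefSeq entries were found for 24 of the 39 genes, with 27 promoters, of which 9 held a GC box, 3 a TEAD site and 1 an AP-1 site. The 3 motifs share no overlapping match in the promoters shown, and a match is a run of letters, not a shown binding site.

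Among β subunits, Itgb1 (chromosome 8, 128685654 to 128733200, GRCm38), the partner of most matrix-binding α chains, had the highest level. It was at 151, 143 and 141 CPM in wild type and 184, 151 and 156 CPM in the knockout at day 0. By day 7 it was at 620, 742 and 672 CPM in wild type and 745, 758 and 742 CPM in the knockout. All 6 libraries of day 7 lay above all 6 of day 0. Its log2 rise was 2.23 (SE 0.09, edgeR adjusted p = 3.02e-09) in wild type and 2.19 (SE 0.09, adjusted p = 3.65e-09) in the knockout. On the per-length scale Itgb1 supplied 56.1 ± 1.02% (SD, n = 3) of the summed RPKM of all integrin β subunits in wild type at day 0 and 75.1 ± 1.82% at day 7, and in the knockout 58.2 ± 2.29% and 79.1 ± 0.697%. The summed β level went from 63.4 ± 3.53 to 221 ± 15.0 RPKM in wild type and from 68.8 ± 4.76 to 232 ± 4.53 RPKM in the knockout, with no overlap between days.

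Itgb5, which pairs with αv to bind vitronectin, was the second β subunit by level. It was at 69.5, 67.0 and 63.1 CPM in wild type and 72.7, 70.1 and 68.8 CPM in the knockout at day 0. After 7 days it was at 195, 193 and 184 CPM in wild type and at 167, 175 and 157 CPM in the knockout. The rise was 1.52 (SE 0.07, edgeR adjusted p = 6.72e-09) in wild type and 1.24 (SE 0.07, adjusted p = 3.53e-08) in the knockout. Its share of the β level went from 29.6 ± 0.575% to 24.4 ± 1.81% in wild type and from 28.9 ± 1.24% to 20.2 ± 0.678% in the knockout, while that of Itgb1 went up. The other β subunits were scarce at day 7: Itgb3, the β chain of the platelet fibrinogen receptor and of a vitronectin receptor, fell by 1.55 (SE 0.30, edgeR adjusted p = 0.000827) in wild type and fell by 1.03 (SE 0.29, adjusted p = 0.00987) in the knockout, to 2.34 ± 0.440 and 3.36 ± 1.09 CPM. Itgb8, a β chain that pairs with αv and activates latent TGF-β, had no read in the 6 libraries of day 0 and 235 and 190 reads in the 3 wild type and 3 knockout libraries of day 7. Against a floor of 3 counts over the group it was at least 55.3-fold higher in wild type and at least 62.1-fold higher in the knockout.

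The fibronectin receptors were led by Itga5, whose product pairs with β1 and binds the RGD site of fibronectin. Itga5 (chromosome 15, 103344286 to 103366763, GRCm38) was at 51.7, 133 and 142 CPM in wild type and 100, 38.3 and 35.1 CPM in the knockout at day 0. Replicate 1 of wild type was the low library and replicate 1 of the knockout the high one, and the groups overlapped. At day 7 the spread was small, with 362, 356 and 313 CPM in wild type and 335, 322 and 334 CPM in the knockout. The rise was 1.66 (SE 0.42, edgeR adjusted p = 0.00449) in wild type and 2.51 (SE 0.43, adjusted p = 0.000343) in the knockout. Itga5 held 54.2 ± 17.4% of the summed integrin α RPKM in wild type at day 0 and 58.4 ± 1.40% at day 7, and 40.6 ± 11.2% and 57.9 ± 0.474% in the knockout.

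Itgav, the αv chain shared by the vitronectin and latent TGF-β receptors, was at 5.23, 4.78 and 1.98 CPM in wild type and 6.48, 5.87 and 3.57 CPM in the knockout at day 0. At day 7 wild type had 5.71, 6.83 and 7.55 CPM, and the knockout had 16.4, 18.9 and 20.9 CPM. Each knockout library of day 7 was above every other library of the study. The rise passed the test in the knockout (1.82, SE 0.33, edgeR adjusted p = 0.000544) and missed it in wild type (0.74, SE 0.33, adjusted p = 0.0665). The change in the knockout minus that in wild type was 1.08 (SE 0.46, adjusted p = 0.710), so that a difference between genotypes was not shown by this test. Leaving out replicate 1 of wild type day 0 brought the wild type rise to 0.98 with an adjusted p of 0.0383.

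Itga4 and Itga8, the α chains of receptors for fibronectin and VCAM1 and for nephronectin, were close to absent at day 0. Itga4 had 0.719, 0 and 0 CPM in wild type and 0.136, 0.227 and 0.482 CPM in the knockout at day 0, where a single wild type library held all 18 reads of its group. At day 7 it reached 26.2, 30.7 and 27.6 CPM in wild type and 25.5, 30.7 and 30.7 CPM in the knockout. The log2 rise was 7.10 (SE 0.86, edgeR adjusted p = 2.36e-05) in wild type and 6.59 (SE 0.81, adjusted p = 2.88e-05) in the knockout. Itga8 was at 0.20, 0.141 and 0.382 CPM in wild type and 0.170, 0.341 and 0.120 CPM in the knockout at day 0. Day 7 levels were 9.57, 9.10 and 10.8 CPM in wild type and 9.55, 13.4 and 9.16 CPM in the knockout. Its rise was 5.37 (SE 0.39, edgeR adjusted p = 3.75e-07) and 5.71 (SE 0.40, adjusted p = 2.77e-07) in wild type and knockout. Without the wild type library that held the day 0 reads of Itga4, the wild type group had none.

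Itga9, an α chain for tenascin and other ligands and the closest relative of Itga4, moved the other way. It was at 42.6, 27.3 and 28.4 CPM in wild type and 47.0, 28.7 and 44.6 CPM in the knockout at day 0. The day 7 libraries held 11.4, 23.4 and 17.4 CPM in wild type and 23.4, 25.5 and 21.9 CPM in the knockout. It fell by 0.91 (SE 0.27, edgeR adjusted p = 0.0118) in wild type and fell by 0.76 (SE 0.27, adjusted p = 0.0284) in the knockout. The days did not overlap within either genotype. The call of Itga9 in the knockout was lost without replicate 1 or 3 of day 0 and without any 1 knockout library of day 7, and its adjusted p ranged from 0.00875 to 0.0950 over 20 alternatives. The wild type call was lost without replicate 1 of day 0.

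Among the α chains of laminin receptors, Itga3 had the highest level per length at day 7, with 35.5 ± 1.68 RPKM in wild type and 32.0 ± 1.49 in the knockout, beside at most 3.19 RPKM for the group means of Itga6 and Itga7. At day 0 it was at 6.31 ± 1.73 and 5.22 ± 0.607 RPKM and Itga6 at 4.77 ± 0.310 and 3.08 ± 1.39 RPKM, with no overlap between the libraries of these 2 genes within either genotype. This order depends on the annotated exon lengths, 5.71 kb for Itga3 and 9.025 kb for Itga6. Before division by length, the day 0 group means of Itga3 and Itga6 were 36.0 and 43.0 CPM in wild type and 29.8 and 27.8 CPM in the knockout. In CPM, Itga3 was at 47.4, 30.4 and 30.3 CPM in wild type and 28.2, 33.8 and 27.4 CPM in the knockout at day 0. At day 7 it was at 209, 207 and 191 CPM in wild type and 188, 173 and 188 CPM in the knockout. The rise was 2.49 (SE 0.16, edgeR adjusted p = 1.64e-07) in wild type and 2.62 (SE 0.17, adjusted p = 1.19e-07) in the knockout. Itga7, an α chain best known from muscle, rose from 3.32, 2.57 and 2.68 CPM to 23.4, 24.6 and 23.1 CPM in wild type, and from 2.18, 3.14 and 2.65 CPM to 27.1, 24.3 and 26.1 CPM in the knockout. The log2 change of Itga7 was 3.06 (SE 0.16, edgeR adjusted p = 2.49e-08) and 3.28 (SE 0.16, adjusted p = 1.63e-08).

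Itga6 (chromosome 2, 71745616 to 71858416, GRCm38) encodes α6, which pairs with β1 or, at hemidesmosomes of epithelia, with β4. It was at 41.1, 46.2 and 41.7 CPM in wild type and 42.2, 19.4 and 21.9 CPM in the knockout at day 0. After 7 days it was at 22.2, 28.8 and 23.9 CPM in wild type and 29.6, 20.4 and 30.7 CPM in the knockout. In wild type it fell by 0.78 (SE 0.27, edgeR adjusted p = 0.0224), a call that was lost without replicate 2 of day 0 or without replicates 1 or 3 of day 7. In the knockout the change was -0.05 (SE 0.27, adjusted p = 0.888), and the difference between the 2 changes was 0.74 (SE 0.37, adjusted p = 0.768). Itgb4, the partner of α6, fell by 2.24 (SE 0.23, edgeR adjusted p = 5.86e-06) in wild type and fell by 1.87 (SE 0.23, adjusted p = 2.35e-05) in the knockout, from 9.89 ± 2.18 to 2.08 ± 0.379 CPM and from 9.81 ± 1.83 to 2.68 ± 0.253 CPM. In wild type, Itga6 and Itgb4 therefore fell over days in which Itga3, Itga7 and Itgb1 rose. Surface epithelium is where α6 with β4 is best known. The summed level of its 8 markers went from 319 to 409 CPM at day 0 to 4030 to 5240 CPM at day 7. The list was divided: of 6 tested, 3 rose and 3 fell in wild type, and 3 rose and 2 fell in the knockout. Over all genes, 32.9% rose and 32.1% fell in wild type, and 31.1% and 32.3% in the knockout. The part of this cell type in the Itga6 and Itgb4 levels was not tested.

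The collagen receptor chains were scarce at both days. Itga11, a collagen receptor of mesenchymal cells, had 5 reads in each day 0 group and 7.03 ± 1.48 and 7.65 ± 0.982 CPM in wild type and knockout at day 7. Itga1 rose by 1.04 (SE 0.37, edgeR adjusted p = 0.0275) in wild type and 1.46 (SE 0.37, adjusted p = 0.00509) in the knockout but stayed at or below 2.95 CPM in every group mean, and the wild type call of Itga1 was lost in 5 of 20 alternatives, which leave out wild type replicate 2 or 3 of either day or block by replicate within genotype. Itga10 fell by 1.39 (SE 0.56, adjusted p = 0.0482) in the knockout, a call lost in 10 of 20 alternatives, and in wild type it had a change of -0.51 (SE 0.55, adjusted p = 0.434). The Itga10 call was lost without any 1 knockout library of day 0, without knockout replicate 2 or 3 of day 7 and without wild type replicate 3 of either day. Itga2 had 10 reads in all libraries together. Itga2b, the platelet αIIb chain, rose by 1.63 (SE 0.37, edgeR adjusted p = 0.00239) in wild type and 2.23 (SE 0.38, adjusted p = 0.000332) in the knockout, to 2.52 ± 0.675 and 2.75 ± 0.972 CPM. Beside Itga2b, the summed level of 8 markers of megakaryocytes and platelets was 8.36 to 11.9 CPM at day 0 and 2 to 2.75 CPM at day 7, with Pf4 at 0 in 3 of the 4 groups. Of the 8, 4 had no read in wild type and 3 none in the knockout at day 0, against 1 in each group of day 7. The list was divided: of 5 tested, 1 rose and 2 fell in wild type, and 0 rose and 2 fell in the knockout. Over all genes, 32.9% rose and 32.1% fell in wild type, and 31.1% and 32.3% in the knockout. The part of these cells in the Itga2b level was not tested.

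Of the 8 genes of leukocyte integrin chains, Itgb7, Itgal and Itgae fell over the 7 days in both genotypes, Itgb2 did not pass the test, and the other 4 were not tested. Itgb7, the β chain of gut-homing lymphocytes, was at 19.7, 18.2 and 15.6 CPM in wild type and 16.3, 19.3 and 16.3 CPM in the knockout at day 0. By day 7 it was at 0.324, 0.520 and 0.387 CPM in wild type and at 0.571, 0.811 and 0.839 CPM in the knockout. It fell by 5.40 (SE 0.23, edgeR adjusted p = 5.63e-09) and fell by 4.55 (SE 0.22, adjusted p = 1.62e-08). Itgal, the α chain of LFA-1, fell by 4.82 (SE 0.95, adjusted p = 0.000956) and fell by 5.75 (SE 1.08, adjusted p = 0.000701), from group means of 2.41 and 2.39 CPM. Itgae, a partner of Itgb7 in intraepithelial lymphocytes, fell by 2.87 (SE 0.76, adjusted p = 0.00630) and fell by 4.15 (SE 0.83, adjusted p = 0.00107) from 0.963 and 1.325 CPM. Itgb2, the common β chain of LFA-1 and the myeloid integrins, did not pass (0.92, SE 1.301, adjusted p = 0.556 in wild type and 1.85, SE 1.34, adjusted p = 0.247 in the knockout). Of the untested myeloid chains, Itgam had 30, 6, 4 and 0 reads in wild type day 0, knockout day 0, wild type day 7 and knockout day 7.

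Beside these genes, the summed level of 8 leukocyte markers was 91.6 to 127 CPM in the libraries of day 0 and 2.50 to 4.18 CPM at day 7. Nearly all of it was Laptm5, a lysosomal membrane protein, with group means of 90.3 and 109 CPM at day 0. The defining marker Ptprc (CD45) was at 0 in wild type and 0.0227 CPM in the knockout at day 0, Tyrobp was at 0 in both, and Csf1r was at most 0.0695 CPM. Itgb7, Itgal and Itgae were read in the same day 0 libraries. Of the 8 leukocyte markers 5 were tested, and 3 fell and 1 rose in each genotype over the 7 days. Over all genes, 32.1% fell in wild type and 32.3% in the knockout. The part of leukocytes in the reads of these integrin genes was not tested. Over the same 7 days the 7 markers of naive ES cells went from 6540 to 6950 CPM summed to 266 to 298 CPM.

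**Figure D2:**
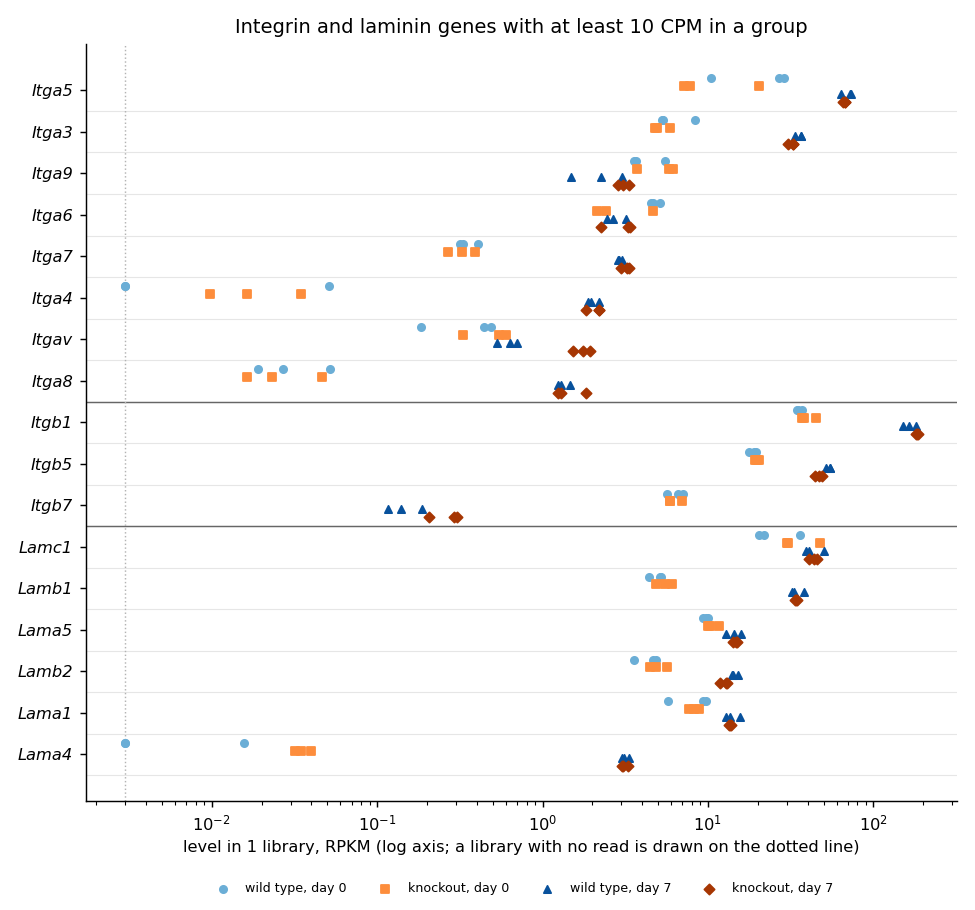
Level in each library, in RPKM on a log axis, of 17 genes with a mean of at least 10 CPM in 1 or more groups, with integrin α genes above, integrin β genes in the middle and laminin genes below, and 3 points for each group. Itgb1 and Itga5 sit furthest right at day 7, Itgb7, Itga9 and Itga6 of wild type lie further left at day 7 than at day 0, and Lama4 and Itga4 of wild type have libraries with no read at day 0.

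All 3 chains of laminin-111 and laminin-511 were already abundant at day 0. Lama5, the broadly used laminin α5 chain, was at 111, 113 and 106 CPM in wild type and 133, 117 and 114 CPM in the knockout at day 0. After 7 days it was at 163, 181 and 147 CPM in wild type and 170, 160 and 168 CPM in the knockout. The rise was 0.57 (SE 0.09, edgeR adjusted p = 0.000130) and 0.45 (SE 0.09, adjusted p = 0.000731). Lama1, the α1 chain of early embryonic membranes, was at 55.2, 90.05 and 94.4 CPM in wild type and 79.6, 85.7 and 74.6 CPM in the knockout at day 0. Day 7 levels were 125, 151 and 132 CPM in wild type and 134, 131 and 130 CPM in the knockout. It rose by 0.77 (SE 0.17, edgeR adjusted p = 0.00183) and by 0.72 (SE 0.17, adjusted p = 0.00276). Per length, Lama1 and Lama5 held 44.2 ± 7.49% and 53.1 ± 7.20% of the summed laminin α RPKM in wild type at day 0, and 44.3 ± 1.75% and 45.4 ± 1.73% at day 7, with overlap between the chains on both days. In the knockout Lama5 was above Lama1 without overlap, at 54.7 ± 2.14% against 42.5 ± 2.75% at day 0 and 46.2 ± 0.673% against 43.1 ± 0.603% at day 7.

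Lama4, the α chain of vascular and mesenchymal laminins, was the laminin gene with the largest rise. It was at 0, 0.188 and 0 CPM in wild type at day 0, from 8 reads in replicate 2. In the knockout it was at 0.477, 0.416 and 0.386 CPM at day 0, from 41 reads. The day 7 libraries held 37.4, 40.0 and 36.5 CPM in wild type and 37.1, 36.5 and 39.9 CPM in the knockout. The rise was 8.83 (SE 0.50, edgeR adjusted p = 5.12e-08) in wild type and 6.47 (SE 0.42, adjusted p = 1.46e-07) in the knockout. At day 7 Lama4 made up 9.94 ± 0.423% and 9.92 ± 0.457% of the laminin α RPKM. Lama3, the α chain of epithelial laminin-332, fell by 1.92 (SE 0.38, edgeR adjusted p = 0.00103) in wild type and fell by 1.06 (SE 0.37, adjusted p = 0.0265) in the knockout, to 1.35 ± 0.212 and 2.53 ± 1.15 CPM, and the knockout call was lost in 7 of 20 alternatives, among them leaving out replicates 1 or 3 of either day.

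Lamb1, the β chain of laminin-111 and laminin-511, had the steepest rise of the abundant laminin chains. It was at 43.5, 51.7 and 50.7 CPM in wild type and 60.2, 48.0 and 54.8 CPM in the knockout at day 0. At day 7 it was at 320, 378 and 326 CPM in wild type and 343, 334 and 339 CPM in the knockout. The rise was 2.81 (SE 0.11, edgeR adjusted p = 2.03e-09) and 2.64 (SE 0.11, adjusted p = 3.33e-09). Lamb2, the β chain of synaptic and kidney laminins, was at 28.4, 29.5 and 21.7 CPM in wild type and 29.3, 34.4 and 27.3 CPM in the knockout at day 0, and at 91.9, 85.9 and 84.7 CPM and 79.6, 78.0 and 72.0 CPM at day 7. It rose by 1.72 (SE 0.13, edgeR adjusted p = 4.45e-07) and by 1.33 (SE 0.13, adjusted p = 3.45e-06). Lamb1 and Lamb2 therefore began at close shares of the laminin β RPKM, 52.1 ± 5.18% and 46.2 ± 5.26% in wild type, and ended at 69.8 ± 2.43% and 29.3 ± 2.43%. In the knockout they went from 51.2 ± 5.24% and 46.7 ± 5.36% to 72.1 ± 0.893% and 26.6 ± 1.10%. Lamb3, the β chain of laminin-332, rose by 1.47 (SE 0.26, edgeR adjusted p = 0.000501) and by 1.45 (SE 0.26, adjusted p = 0.000517), to 2.94 ± 0.553 and 4.07 ± 1.10 CPM.

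Lamc1, the γ chain of nearly all laminins, rose in wild type and did not pass the test in the knockout. It was at 300, 179 and 167 CPM in wild type and 391, 249 and 253 CPM in the knockout at day 0, and in both genotypes replicate 1 was the high library. After 7 days it was at 326, 417 and 337 CPM in wild type and 377, 363 and 340 CPM in the knockout. The change was 0.74 (SE 0.23, edgeR adjusted p = 0.0138) in wild type and 0.27 (SE 0.23, adjusted p = 0.309) in the knockout, and the difference between the 2 changes was -0.47 (SE 0.32, adjusted p = 0.851). The wild type call was lost without replicates 2 or 3 of day 0 or replicate 2 of day 7.

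Set together per length, the laminin γ chains were the most abundant of the 3 laminin classes in wild type at day 0, at 27.0 ± 8.75 RPKM, with α chains at 18.4 ± 2.12 and β chains at 9.42 ± 0.720 RPKM. By day 7 the β chains had reached 49.3 ± 3.05 RPKM, beside 46.4 ± 6.25 RPKM for γ and 31.7 ± 2.91 RPKM for α chains, so that β and γ chains no longer differed beyond their spread. In the knockout the sums at day 0 were 36.9 ± 9.86 RPKM for γ, 19.4 ± 1.00 for α and 10.7 ± 0.470 for β chains. At day 7 they were 47.1 ± 2.20, 31.6 ± 0.510 and 47.4 ± 0.870 RPKM. Of the laminin-332 chains Lama3 and Lamb3, the β chain rose and the α chain fell in both genotypes.

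Other genes of the same system were read from 4 lists, beside 32.9% of all genes rising and 32.1% falling in wild type and 31.1% and 32.3% in the knockout. Of 19 other basement membrane components, 16 were tested, and 14 rose and 1 fell in wild type while 15 rose and 1 fell in the knockout, with median log2 changes of 3.82 and 3.50 against 0.01 and -0.02 over all genes. Col4a2, a chain of the collagen IV network, rose by 3.58 (SE 0.14, edgeR adjusted p = 2.40e-09) in wild type and 3.63 (SE 0.14, adjusted p = 2.53e-09) in the knockout. Sparc, a collagen-binding matrix protein, rose by 2.09 (SE 0.07, adjusted p = 7.39e-10) and 2.11 (SE 0.07, adjusted p = 7.40e-10). Fras1 rose by 5.89 (SE 0.37) and 6.11 (SE 0.38), and Col4a6 by 9.25 (SE 0.56) and 10.61 (SE 0.63), with adjusted p of at most 1.20e-07 in all 4 cases. The 1 that fell was Col18a1.

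Of 19 tested other integrin ligands, 13 rose and 3 fell in wild type and 13 rose and 2 fell in the knockout. Col1a1, the main chain of collagen I, rose by 8.64 (SE 0.26, edgeR adjusted p = 3.62e-10) and 7.92 (SE 0.25, adjusted p = 5.60e-10), and Col1a2, Fbln2 and Ccn1 rose as well, by 4.34 to 6.63 in wild type. Of 43 integrin-linked adhesion proteins, 29 rose and 7 fell in wild type and 30 rose and 8 fell in the knockout. Parva, which links integrin-linked kinase to actin, rose by 4.98 (SE 0.07, edgeR adjusted p = 8.95e-12) and 4.71 (SE 0.07, adjusted p = 1.41e-11), and the kinase Ilk itself by 3.33 (SE 0.07) and 3.34 (SE 0.07). Flnc and Dab2 rose by 5.35 (SE 0.09) and 6.08 (SE 0.23) in wild type. The 11 tested laminin receptors other than integrins, with the dystroglycan complex, were divided, 5 up and 5 down in both genotypes. Sgce and Sdc1 rose by 4.27 (SE 0.12) and 2.29 (SE 0.10) in wild type, while Lgals3 fell by 2.42 (SE 0.10) and Sdc4 fell by 1.43 (SE 0.13). By edgeR none of the genes of these 4 lists differed between genotypes. At an unadjusted p under 0.05 there were 3 basement membrane components, 5 ligands, 2 other laminin receptors and 9 adhesion proteins at day 0, and 2, 3, 2 and 3 at day 7, of 16, 19, 11 and 43 tested. Over all genes, 11.9% were under it at day 0 and 8.18% at day 7.

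Markers of other cell types moved over the same days, and their part in the integrin and laminin changes was not tested. The summed level of 8 mesenchymal markers went from 25.7 to 36.4 CPM at day 0 to 1010 to 1480 CPM at day 7, with Col3a1, Dcn and Prrx1 at 0 in both day 0 groups. That of 10 markers of primitive and parietal endoderm, makers of thick laminin-rich membranes in the embryo, went from 257 to 313 CPM to 1330 to 1530 CPM, and Afp was at 0 throughout. The 8 endothelial markers went from 50 to 76.8 CPM to 237 to 286 CPM, and the 8 trophoblast markers from 46.4 to 72.3 CPM to 1620 to 2230 CPM. At day 7, 3 of the trophoblast markers had no read in wild type and 2 had none in the knockout. Of 8 mesenchymal, 9 endoderm, 7 endothelial and 5 trophoblast markers tested, 7, 7, 6 and 4 rose in each genotype. In each list 1 fell. Over all genes, 32.9% rose and 32.1% fell in wild type, and 31.1% and 32.3% in the knockout. Itga7 and Itgb1bp2 are best known from muscle, and 6 muscle markers summed to 16.8 to 22.7 CPM at day 0 and 25.7 to 34.6 CPM at day 7. Most of the 4 tested muscle markers went against this sum, with 1 up and 3 down in each genotype. Their median log2 change was -2.10 in wild type and -1.52 in the knockout. Over all genes, 32.1% fell in wild type and 32.3% in the knockout. Itgb1bp2 (chromosome X) stayed at or below 0.363 CPM in every group mean and passed in neither genotype.

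Between the libraries labelled knockout, in which Sirt7 was not lower, and those labelled wild type, none of the 31 tested genes passed the test at day 0, beside 0.13% of all genes, and none passed at day 7, beside 0.026% of all genes. The difference between the 7-day changes of the genotypes was called in none of them either, beside 0.026% of all genes. At an unadjusted p under 0.05, edgeR listed 3 of the 31 genes at day 0, 5 at day 7 and 4 for the difference of changes, beside 11.9%, 8.18% and 6.86% of all genes. DESeq2 called 1 gene in each of these 3 comparisons, beside 2.11%, 0.808% and 0.719% of all genes. Groups of 3 libraries did not overlap in 3 of 31 genes at day 0 and in 7 of 31 at day 7, beside 15.7% and 19.5% of all genes. The median log2 difference was 0.05 at day 0 and 0.11 at day 7, against 0 and -0.02 over all genes.

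**Figure D3:**
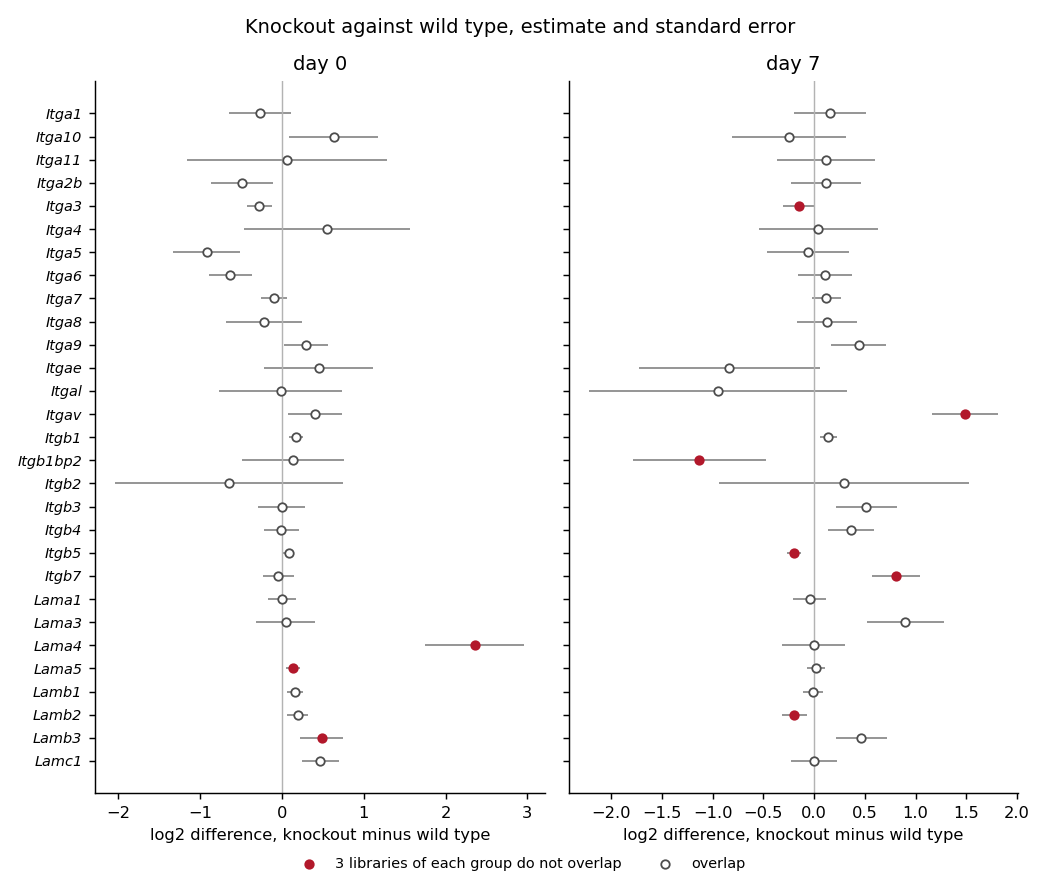
Log2 difference between knockout and wild type at day 0 (left) and day 7 (right) of 29 tested genes, with bars of 1 SE and filled points where the 3 libraries of each group do not overlap. Lama4 at day 0 and Itgav at day 7 lie furthest above 0 among the filled points, and Itgb8 is not drawn.

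The largest difference at day 0 was that of Lama4, higher in each of the 3 knockout libraries by 2.35 (SE 0.61, edgeR adjusted p = 0.223), on the 8 and 41 reads given above. DESeq2 called Lama4 at day 0 (2.34, adjusted p = 0.00690) and in the difference of changes (-2.34). Without replicate 2 of wild type day 0 the wild type group had no read of Lama4, and edgeR then called it with an adjusted p of 0.00144. Endothelium is a cell type that makes Lama4. The summed level of its 8 markers was also higher in the knockout at day 0, at 71.8 to 76.8 against 50 to 53.4 CPM. The list was divided: 4 of its 7 tested markers had a positive difference, and the median log2 difference was 0.12. Of the 8 markers, Pecam1 and Tek passed the edgeR test (0.46, SE 0.07, adjusted p = 0.0431, and 1.29, SE 0.18, adjusted p = 0.0313), beside 0.13% of all genes. Cdh5 was at 0.225 and 0.182 CPM and Emcn at 0. Their part in the Lama4 difference was not tested. By day 7 Lama4 differed by 0.00 (SE 0.31). The other laminin chains without overlap at day 0 were Lamb3 (0.49, SE 0.27, edgeR adjusted p = 0.5002) and Lama5 (0.14, SE 0.09, adjusted p = 0.562), both higher in the knockout.

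At day 7 the largest difference between groups that did not overlap was that of Itgav, 1.48 (SE 0.33, edgeR adjusted p = 0.299, unadjusted p = 0.000821). The adjusted p of Itgav ranged from 0.00351 to 0.681 over its 19 alternatives, and only DESeq2 called it (1.49). Itgb5, its partner chain, was lower in all 3 knockout libraries of day 7 by a small amount (-0.20, SE 0.07, adjusted p = 0.480). Itgb1bp2 was lower by a larger amount (-1.13, SE 0.66, adjusted p = 0.713) on 14 reads. Itgb7 was higher by 0.81 (SE 0.23, adjusted p = 0.455) from levels under 1 CPM in every library of day 7. Lamb2 and Itga3 were lower (-0.19, SE 0.12, adjusted p = 0.745, and -0.15, SE 0.15, adjusted p = 0.890). Of the abundant genes, Itgb1 and Lamb1 had narrow limits. Itgb1 differed by 0.17 (SE 0.09) at day 0 and 0.14 (SE 0.08) at day 7, and Lamb1 by 0.16 (SE 0.10) and -0.01 (SE 0.10). Itga5 had the largest negative difference among abundant genes, -0.92 (SE 0.41, edgeR adjusted p = 0.412) at day 0, where the groups overlapped, and -0.06 (SE 0.40, adjusted p = 1) at day 7.

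The deposited transcript counts allowed the α3, α6 and α7 chains to be divided by form. Each of these genes has a cassette exon that sits before the last exon and sets which of 2 cytoplasmic tails, called A and B, the protein carries. For Itga6 it lies at chromosome 2, 71853534 to 71853663 (GRCm38, 130 bases), for Itga3 at chromosome 11, 95046449 to 95046590 (142 bases), and for Itga7 at chromosome 10, 128956611 to 128956723 (113 bases). The 2 ends of the Itga6 coding sequence are shown because use of the cassette exon sets which of them a coding transcript carries. Both are taken from the GENCODE transcripts of GRCm38, begin with the shared exon at chr2:71849381-71849506 in lower case, and go on in capitals with the coding bases after it, which lie in the cassette exon in the first form and in the last exon in the second.
Itga6 with the cassette exon: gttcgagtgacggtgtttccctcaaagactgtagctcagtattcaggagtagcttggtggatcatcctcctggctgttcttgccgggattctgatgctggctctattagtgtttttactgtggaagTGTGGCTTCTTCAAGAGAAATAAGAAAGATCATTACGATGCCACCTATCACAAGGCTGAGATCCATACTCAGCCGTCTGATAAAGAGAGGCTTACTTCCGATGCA
Itga6 without the cassette exon: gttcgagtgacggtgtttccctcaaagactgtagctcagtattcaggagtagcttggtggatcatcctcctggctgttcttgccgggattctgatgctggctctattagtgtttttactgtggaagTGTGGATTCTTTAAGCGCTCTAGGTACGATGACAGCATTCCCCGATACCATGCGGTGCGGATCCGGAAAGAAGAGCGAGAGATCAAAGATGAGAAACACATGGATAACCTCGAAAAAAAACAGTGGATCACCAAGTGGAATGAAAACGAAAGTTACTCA
The first has 105 coding bases of its own and the second 159.

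Itga3 transcripts that could be assigned held the cassette exon in 99.98 to 100% of counts in every library. Itga7 transcripts had no count with it in the 3 knockout libraries of day 0, and 0 to 0.430% of counts held it in the libraries of day 7. In wild type at day 0 the share of Itga7 with the exon was 53.8, 9.35 and 0%, on 76 to 107 counts a library. For Itga6 the share with the exon in wild type was 30.8, 13.2 and 15.5% at day 0 and 51.6, 37.9 and 25.8% at day 7. In the knockout it was 100% in all 3 libraries at day 0, and 58.2, 100 and 52.6% at day 7. Day 7 minus day 0 was 18.6 percentage points for Itga6 in wild type and -29.7 in the knockout, with exact two-sided permutation p of 0.2 and 0.4, where 3 against 3 libraries cannot go below 0.1. With both genotypes together, a test that ignores genotype and so averages these opposite values, it was -5.57 percentage points for Itga6, -10.4 for Itga7 and -0.00818 for Itga3, with exact two-sided permutation p of 0.771, 0.455 and 0.182 (adjusted over the 3 genes 0.771, 0.682 and 0.545).

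The Itga6 counts without the cassette exon came almost wholly from 1 transcript of 3 exons, Itga6-203, which is annotated as non-coding and had 6295 counts over all libraries. The coding transcript without the exon, Itga6-202, had 33. Among protein-coding transcripts alone the share with the exon was 100% in the 3 other groups and 94.5 ± 9.09% in wild type at day 7. Itga6-203 was at 27.8, 40.0 and 34.4 CPM in wild type at day 0 and had no count in any knockout library of day 0. By day 7 it was at 10.7, 17.0 and 16.4 CPM in wild type and at 11.7, 0 and 13.9 CPM in the knockout. The coding transcript Itga6-201 went the other way at day 0, with 12.4, 5.96 and 6.29 CPM in wild type and 37.2, 18.5 and 20.9 CPM in the knockout. After 7 days it was at 11.3, 10.4 and 6.12 CPM in wild type and 16.2, 18.6 and 15.3 CPM in the knockout. On both days the knockout libraries lay above all wild type libraries for Itga6-201, a comparison chosen after the counts were seen. The share of all transcripts whose levels separate in this way was not computed, so the order has no background beside it.

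**Figure D4:**
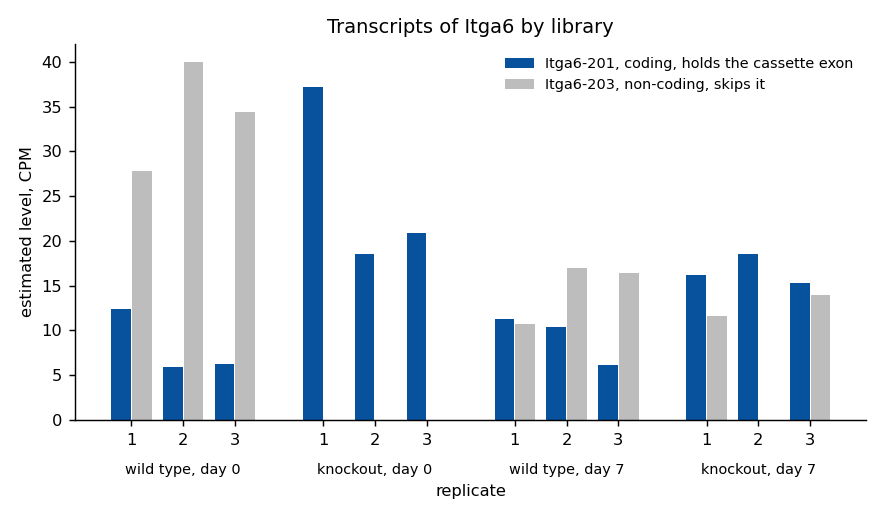
Estimated level in CPM of the coding transcript Itga6-201 and the short non-coding transcript Itga6-203 in each of the 12 libraries. The grey bars are missing from the 3 knockout libraries of day 0 and from replicate 2 of the knockout at day 7.

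The difference in the Itga6 share between knockout and wild type was 80.2 points at day 0 and 31.8 points at day 7, each with an exact two-sided permutation p of 0.1, the smallest that 3 against 3 libraries allow. Leaving out 1 library moved it to 76.9 to 85.7 points at day 0 and 17.0 to 40.7 points at day 7, the lowest being that without replicate 2 of the knockout. Over all genes with enough counts, 0.875% had a leading transcript whose share differed by at least 50 points between genotypes at day 0 without overlap, and 0.666% did at day 7. Itga6 was 1 of the genes at day 0. At day 7 none of the integrin or laminin genes with enough counts was, and Lamb1 was not assessed. Itgb5 came next at day 0, where its leading transcript held 85.5 to 100% of counts in the knockout and 54.1 to 69.95% in wild type. Transcript counts are estimates, since a read can fit several forms, and a share of exactly 0 or 100% can be a property of the estimate.

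The parents' genomes could be told apart in 29.7 to 32.0% of the reads of a library, which the authors deposited as genome 1 and genome 2 without naming the strain. Of the integrin and laminin genes, 14 had at least 20 such reads in every library. Over all libraries, 7 of the 14 had under 10% of reads from genome 2, 5 had 30 to 70%, 1 had 10 to 30% and Itgb3 had 82.5%. Of 9344 genes measured the same way, 47.7% had under 10% and 31% had 30 to 70%. Itgb5 had no genome 2 read among 29978 and Itga7 none among 2959, which allow shares of up to 0.010% and 0.101% by counting error, while Lamc1 had 51.7% from genome 2. Whether a gene at 0% has its differing positions read in 1 genome only was not tested.

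**Figure D5:**
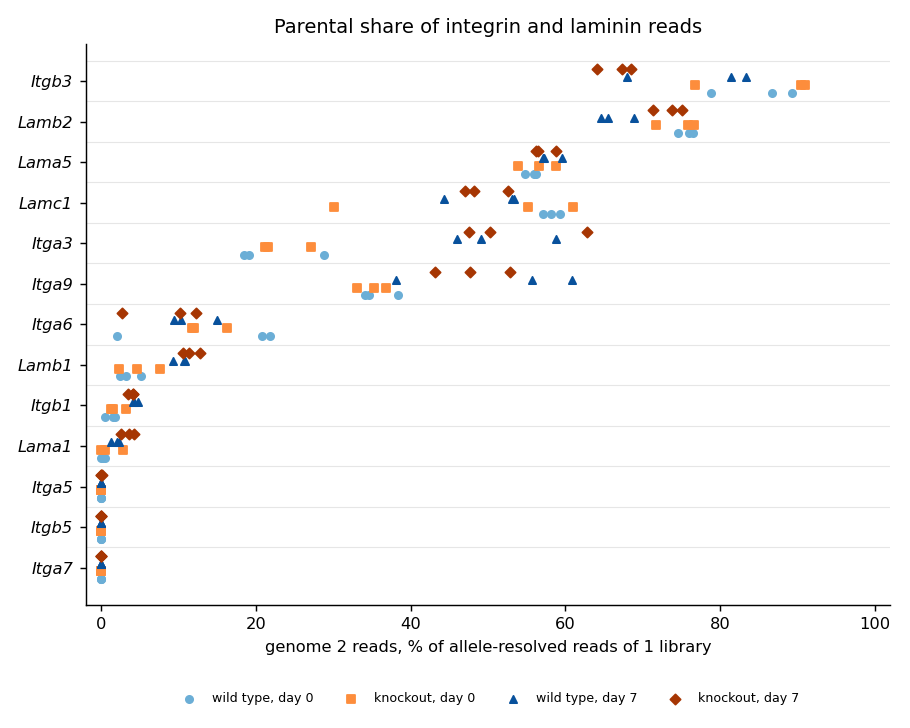
Reads of genome 2 as a percent of allele-resolved reads in each library, for 13 of the 14 genes with at least 20 such reads in every library, with 3 points for each group. The 6 day 7 libraries of Itga3 sit between 46.0 and 62.7%, all above its 6 day 0 libraries, and Itga5, Itgb5 and Itga7 sit at or near 0% in every library.

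Over 7 days the allelic balance of 1 gene, Itga3, passed the test in the knockout, of 17 genes tested and beside 2.09% of all genes. None of 14 passed in wild type, beside 2.24% of all genes, and 5 had an unadjusted p under 0.05 by edgeR, beside 11.8% of all genes. The genome 2 share of Itga3 was 28.8, 18.4 and 19.1% in wild type and 21.1, 21.5 and 27.2% in the knockout at day 0. At day 7 it was 49.1, 58.8 and 46.0% in wild type and 62.7, 47.6 and 50.3% in the knockout. The log2 ratio of genome 2 to genome 1 reads moved by 1.94 (SE 0.32, edgeR adjusted p = 0.0440) in the knockout and by 1.92 (SE 0.33, adjusted p = 0.0539) in wild type. The knockout call was lost when any 1 of its 6 libraries was left out. The next smallest p in wild type were those of Lamb1 and Itgb1, whose genome 2 share was 2.47 to 5.22% and 0.529 to 1.76% at day 0 and 9.23 to 10.9% and 4.15 to 4.83% at day 7. They did not pass (Lamb1 1.67, SE 0.31, edgeR adjusted p = 0.0665; Itgb1 1.97, SE 0.45, adjusted p = 0.120). No gene differed in allelic balance between genotypes, of 18 tested at day 0 and 19 at day 7, beside 0.00952% and 0% of all genes. At an unadjusted p under 0.05, edgeR listed none at day 0 and 2 at day 7, Lama1 (0.90, SE 0.33) and Lamb2 (0.49, SE 0.19), beside 1.86% and 2.18% of all genes.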

How the data were processed

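For every gene and every transcript the authors deposited expected counts, estimates of reads that carry no normalization. Another deposited table divides the gene counts into genome 1, genome 2 and unassigned, and the matching table of transcripts was not used here. Every value was whole, so no rounding was needed. The submitters' processing notes list StringTie 1.3.3, HISAT2 2.1.0, SAMtools 0.1.19, Trimmomatic 0.36, FastQC 0.11.3 and DESeq2 1.32.0, with builds mm10 and GRCm38, without saying which step each was used for. Settings, the annotation release, the allele-splitting step and strand use were not found in the labels or file headers, so reads of overlapping or antisense genes cannot be told apart.

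Groups came from the genotype and day in the sample titles. The treatment tag was used only as an alternative term. Gene tests were run with edgeR 4.0.16 in R 4.3.3. They used TMM scaling, filterByExpr with the 4 groups, a quasi-likelihood fit of all 12 libraries with 1 coefficient per group, and Benjamini-Hochberg adjustment over 19235 genes at a threshold of 0.05. DESeq2 1.42.0 was an alternative. Exon lengths, positions and transcript structures came from the GENCODE annotation of GRCm38, which held 99.38% of the gene identifiers, and promoters from RefSeq. RPKM is a level computed from CPM and the length of all annotated exons. Allelic balance was tested with edgeR on genome 1 and genome 2 counts as separate columns, with a block per library, for genes with at least 20 resolved reads in every library compared. Transcript shares were compared with exact permutation tests (SciPy 1.17.1). Lamb1 was left out of them because most of its counts belong to transcripts not used here. The gene and allele tests were checked on simulated data. Floors of 3 counts cover counting error only.

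The members and the lists were chosen with earlier results of these data known. The results of 1 gene are not reported here or drawn, though it is in the counts and sums. For the others, values in every library are given for genes with at least 10 CPM in a group, and of each other list up to 4 genes with the smallest adjusted p in a day comparison are named. The comparisons of Itga6 transcripts between genotypes were chosen after their counts were seen. Alternatives changed the scaling, the filter, the tool, the libraries and the blocks.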

Additional observations from a re-analysis of the deposited data

How the results depend on the processing

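The count of integrin and laminin genes called over 7 days was 24 to 28 in wild type and 24 to 27 in the knockout when each of the 12 libraries was left out in turn, and 26 to 28 and 24 to 27 under the other alternatives. Of 67 results on single genes, run under 1328 alternatives in all, 1286 kept their direction and side of the threshold, 36 lost the call, 6 gained one and none reversed. Between genotypes, DESeq2 called 1 gene at day 0 (Lama4), 1 at day 7 (Itgav) and 1 for the difference of changes (Lama4), where edgeR called 0. With 1 library left out the counts were 0 to 1 at day 0, 0 to 0 at day 7 and 0 to 1 for the difference of changes, the 1 being Lama4 without wild type replicate 2 of day 0. Samples with the same replicate number did not deviate together (correlations of -0.024 to 0.061), which does not settle whether the numbers pair them. Within each genotype the treatment tag of a replicate number was the same on both days. With a replicate block 27 genes were called in wild type and 24 in the knockout, where Itga10, Itga9 and Lama3 dropped out, and 0 between genotypes; with the block within genotype the counts were 26 and 25. A minimum of 50 allele-resolved reads gave 1 allelic call in wild type (Itga3), and leaving out any library took the knockout count to 0 (0 to 0). The Itga6 share with the cassette exon, -5.57 points over 7 days, was 18.6 points in wild type alone, -29.7 points in the knockout alone, -14.9 to 2.45 points with 1 library left out, 2.45 without any 1 knockout library of day 0 and 0.141 without wild type replicate 3 of day 7. That of Itga7 was 0.0908 points in the knockout alone, and -12.5 to -1.70 points with 1 library left out. The cause of these changes was not tested. Low counts limit Itga10, Itgb2, Itgb1bp2 and the day 0 values of Lama4 and Itga4.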
